A study of Mus musculus with 6 samples.

Results

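Genes that make, take up, store and burn fatty acids were followed in bone marrow-derived macrophages (BMMs) from mice as these cells were driven toward the osteoclast fate. The set holds 39 genes, listed by symbol with earlier results of these arrays known, so its counts describe the genes listed. They were sorted into synthesis (11 genes), uptake and activation (9), storage and lipolysis (10), oxidation (7) and the nuclear receptors *Pparg* and *Ppard* (2). A gene counted as measured where the array has a probe set paired with its symbol alone, and its brightest probe set was used. This held for 37 of the 39, out of 19938 genes measured in this way. No probe set was paired with *Acsl1*, and *Acsl3* appeared only on a probe set that also lists *Utp14b*, so neither is in the counts.

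The rGDF11 group received 100 ng/ml recombinant growth differentiation factor 11, a member of the TGF-β superfamily, for 24 h, and the vehicle group did not. Both groups were BMMs grown with M-CSF from the tibial marrow of mice given as 9 weeks old in the labels (the methods give an age range that ends there, and female C57BL animals for the study), and both were kept over those 24 h with 100 ng/ml M-CSF, the growth factor of macrophages, and 50 ng/ml RANKL, the cytokine that turns macrophages into osteoclasts. Each group had 3 samples labelled as biological replicates, with 1 Affymetrix Mouse Gene 1.0 ST array per sample. It is not stated whether they came from separate mice, so p-values measure only the spread between these samples.

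Fatty acids are built in steps: ACC (*Acaca*, *Acacb*) makes malonyl-CoA, FASN assembles palmitate, elongases (*Elovl* genes) lengthen it, and desaturases (*Scd* and *Fads* genes) put in double bonds. Fatty acids from outside are freed from lipoproteins by lipoprotein lipase, enter with the help of CD36, are carried by fatty acid-binding proteins and are activated by acyl-CoA synthetases. They are then kept as triacylglycerol in lipid droplets or carried into mitochondria on carnitine for β-oxidation. In macrophages this traffic is best known from foam cells, which load lipid droplets, and in mice PPAR-γ, a nuclear receptor that senses fatty acids and drives many uptake and storage genes, has been linked to osteoclast formation.

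Values are deposited log2 values made by the robust multichip average (RMA), so a difference of 1 is a doubling. A gene is said to have fallen or risen in rGDF11 samples where limma's moderated test, two-sided and adjusted by Benjamini-Hochberg over 23410 probe sets, gave an adjusted p under 0.05. Values are compared between arrays and not between genes, since probe sets differ in brightness. Of the 37 measured genes, 15 fell with rGDF11, 1 rose and 21 did not pass the test. The share that fell was 40.5%, beside 8.64% of all tested probe sets, and the 1 rise stood beside 7.31% of all tested probe sets. At the threshold of the study's methods, a fold change of 1.5 with an unadjusted P under 0.01, 11 genes were lower and 0 higher, beside 2.96% lower and 2.06% higher among all probe sets. On 24 genes every rGDF11 array read lower than every vehicle array and on 3 every one read higher, beside 16.5% and 16.4% of all probe sets. At an unadjusted p under 0.05, limma counted 21 genes lower and 3 higher (*Ppard*, *Elovl7* and *Dgat2*), and the methods' test, adjusted in the same way, called 17 lower and 1 higher. The median log2 fold change was -0.19, against 0.024 for all tested probe sets. In bulk RNA, fewer cells of a kind and less RNA per cell cannot be told apart.

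**Figure D1:**
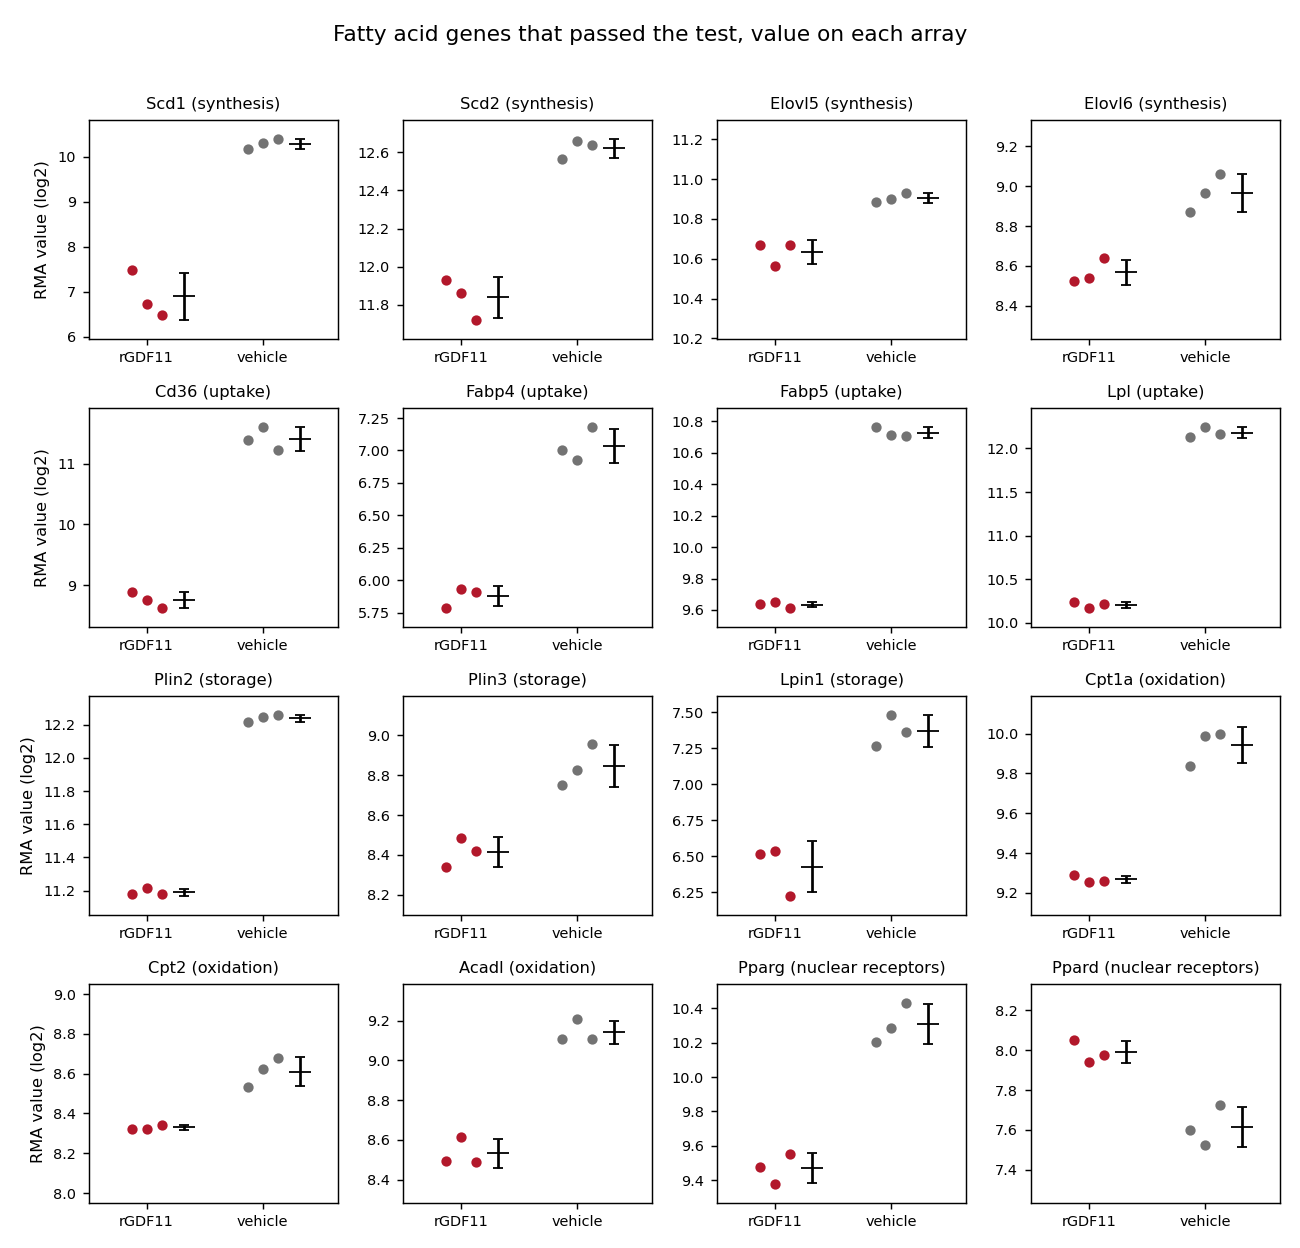
RMA value (log2, vertical axis, scaled per panel) of the 16 fatty acid genes that passed the test, on the 3 rGDF11 arrays (red) and the 3 vehicle arrays (grey), with the mean and SD as black bars. In every panel the groups are apart, and only *Ppard* is higher in the rGDF11 group.

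The arrays as a whole were alike in level, with medians of 6.11 to 6.18 and correlations of 0.997 to 0.998 within a group and 0.989 to 0.991 between groups, across probe sets. Macrophage markers were bright: their summed linear level was 23515 to 24754 on rGDF11 arrays and 29019 to 29458 on vehicle arrays, and of the 8 markers 5 fell (*Fcgr1*, *Cd14*, *Adgre1*, *Cd68*, *Itgam*), 0 rose and 3 did not pass. Osteoclast markers summed to 5395 to 6052 with rGDF11 and 2285 to 2371 with vehicle, with 6 of 9 up, *Mmp9* down and 2 not passed. Many of the genes below are also adipocyte genes, so adipocyte markers were read: 0 of the 7 measured (*Adipoq*, *Lep*, *Plin1*, *Plin4*, *Cidec*, *Cidea* and *Retn*) passed limma's test, and 0 had an unadjusted p under 0.05. Their mean levels over the 6 arrays were 3.98 to 5.68 on the log2 scale, below the median probe set at 6.15, and they summed to 197 to 231 with rGDF11 and 182 to 220 with vehicle. Other lists also moved: marrow stromal and osteoblast markers summed to 488 to 527 and 359 to 397 (3 of 7 rose, 0 fell), neutrophil markers to 639 to 702 and 497 to 530 (2 of 7 rose, 0 fell) and megakaryocyte markers to 421 to 503 and 813 to 916 (1 of 3 fell, 0 rose) in the rGDF11 and vehicle groups. B lineage markers summed to 171 to 187 with rGDF11 and 263 to 299 with vehicle (of 5, *Cd79b* fell and 0 rose). Dendritic markers summed to 181 to 205 and 159 to 172 (1 of 5 rose, 0 fell) and endothelial markers to 184 to 190 and 198 to 201 (1 of 5 fell, 1 rose). The sums of T and NK and of erythroid markers overlapped between the groups. Among their genes, *Cd4* of the T and NK list fell (limma adjusted p = 0.0410) and *Alas2* of the erythroid list rose (adjusted p = 0.0463). Over all tested probe sets 8.64% fell and 7.31% rose. The part of these marker differences in the results below was not tested.

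The largest falls among the 11 synthesis genes were those of *Scd1* and *Scd2*. *Scd1* (probe set 10467979) and *Scd2* (10463355) encode stearoyl-CoA desaturases, which turn saturated into monounsaturated fatty acids. *Scd1* read 7.48, 6.73 and 6.48 on the rGDF11 arrays, against 10.17, 10.31 and 10.39 on the vehicle arrays. The groups lay far apart, and the 3 rGDF11 arrays were spread more widely (6.90 ± 0.52, SD, n = 3) than the vehicle arrays (10.29 ± 0.11, SD, n = 3). The log2 fold change was -3.39 (SE 0.23, limma adjusted p = 6.47e-05), a 10.5-fold lower level that ranked 2 among the falls of all 23410 probe sets. *Scd2* read 11.93, 11.86 and 11.72 with rGDF11, against 12.56, 12.66 and 12.64 with vehicle. It was among the brightest of the measured genes in both groups, which did not overlap, and it fell by 0.78 on the log2 scale (SE 0.07, limma adjusted p = 3.36e-04; 1.72-fold lower).

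The *Scd* genes are close neighbours on mouse chromosome 19 (gene table of GRCm38.p6), with only *Scd4* among coding genes between *Scd1* and *Scd2*. Within each array, *Scd1* minus *Scd2* was -4.45, -5.13 and -5.24 with rGDF11 and -2.39, -2.35 and -2.25 with vehicle. The mean difference changed by -2.61 on the log2 scale, and it was lower on each of the 3 rGDF11 arrays than on any vehicle array. In an exact permutation test, two-sided, p was 0.1, the smallest that 3 arrays against 3 allow, and 0.129 after Benjamini-Hochberg adjustment over 9 pairs of related genes.

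Of the elongases, *Elovl6* and *Elovl5* fell, both by less than *Scd1* and *Scd2*. *Elovl6* (10495993), which extends saturated and monounsaturated chains, read 8.53, 8.54 and 8.64 with rGDF11, against 8.87, 8.96 and 9.06 with vehicle. These groups were separated by a gap about as wide as the spread of the vehicle arrays, and the log2 fold change was -0.40 (SE 0.07, limma adjusted p = 0.00872). *Elovl5* (10587284), which extends polyunsaturated chains, read 10.67, 10.57 and 10.67 with rGDF11, against 10.88, 10.90 and 10.93 with vehicle (-0.27 on the log2 scale, limma adjusted p = 0.0223), and its groups did not overlap. That call was lost when rGDF11 replicate 1 or 2, or any 1 vehicle replicate, was left out, with an adjusted p of up to 0.0778. *Elovl7* stood on the other side, higher on all 3 rGDF11 arrays, as were 16.4% of all tested probe sets. Its log2 fold change of 0.29 did not pass (limma adjusted p = 0.0518), and *Elovl1* was at 0.02 (adjusted p = 0.910).

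The start regions of the fallen elongases are shown because they are the synthesis genes that passed and have an entry in the promoter table. The windows are from RefSeq on GRCm38.p6, cover 250 bases before to 50 bases after the annotated start, and are written 5′ to 3′ along the gene: *Elovl5* at chr9:77917115-77917414, plus strand, and *Elovl6* at chr3:129532136-129532435, plus strand. Capitals mark CCAAT, the box bound by NF-Y, and AGGTCA, the nuclear receptor half-site, on either strand.
Elovl5: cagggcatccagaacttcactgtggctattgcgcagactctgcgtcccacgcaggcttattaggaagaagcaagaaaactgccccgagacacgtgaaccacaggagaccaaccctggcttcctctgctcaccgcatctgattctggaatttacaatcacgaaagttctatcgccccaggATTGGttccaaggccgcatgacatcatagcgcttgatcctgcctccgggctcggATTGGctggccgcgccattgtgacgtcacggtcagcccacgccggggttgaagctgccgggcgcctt
Elovl6: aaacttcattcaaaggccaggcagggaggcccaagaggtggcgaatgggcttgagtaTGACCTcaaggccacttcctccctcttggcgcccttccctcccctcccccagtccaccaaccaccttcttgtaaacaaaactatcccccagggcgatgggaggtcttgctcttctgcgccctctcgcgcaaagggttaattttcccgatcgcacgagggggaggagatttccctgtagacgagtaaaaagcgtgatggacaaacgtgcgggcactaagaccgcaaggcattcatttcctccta
*Elovl5* holds 2 copies of CCAAT, both read on the opposite strand, and *Elovl6* holds 1 AGGTCA, also on the opposite strand. Entries existed for 30 of the 39 genes, in 39 windows. On either strand, CCAAT was in 43.6% of these windows and 37.4% of all 32851 windows of the table, GGGCGG (the Sp1 box) in 61.5% and 35.7%, AGGTCA in 30.8% and 16.3%, TCACNCCAC (a form of the sterol regulatory element) in 2.56% and 1.24%, and CAGAC (a Smad box) in 61.5% and 49.6%. These are matches of letters, given as a description.

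ACC and FASN, which build the chain, did not pass the test. Fatty acid synthase (*Fasn*) stood at -0.17 on the log2 scale (limma adjusted p = 0.173) and *Acaca* at -0.22 (adjusted p = 0.0855). For each, every rGDF11 array lay below every vehicle array, as in 16.5% of all tested probe sets. The 95% intervals, -0.34 to -0.0039 for *Fasn* and -0.38 to -0.051 for *Acaca*, both end short of the change of *Scd2*. A second probe set of *Acaca* gave -0.16 (adjusted p = 0.271). That *Fasn* and *Acaca* did not pass held in 16 and 15 of 17 alternative settings. In the others they were called lower. *Acacb*, the mitochondrial form of ACC, was at 0.05 (adjusted p = 0.715) with overlapping groups and a low level. The desaturases of polyunsaturated fatty acids also did not pass, *Fads1* at 0.08 (adjusted p = 0.490) and *Fads2* at 0.12 (adjusted p = 0.362), with 95% intervals of -0.068 to 0.23 and -0.051 to 0.29. In all, 4 of the 11 synthesis genes fell, 0 rose and 7 did not pass. Over all tested probe sets 8.64% fell and 7.31% rose. At the methods' threshold 2 of the 11 were lower, beside 2.96% of all tested probe sets. The median log2 fold change was -0.17.

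**Figure D2:**
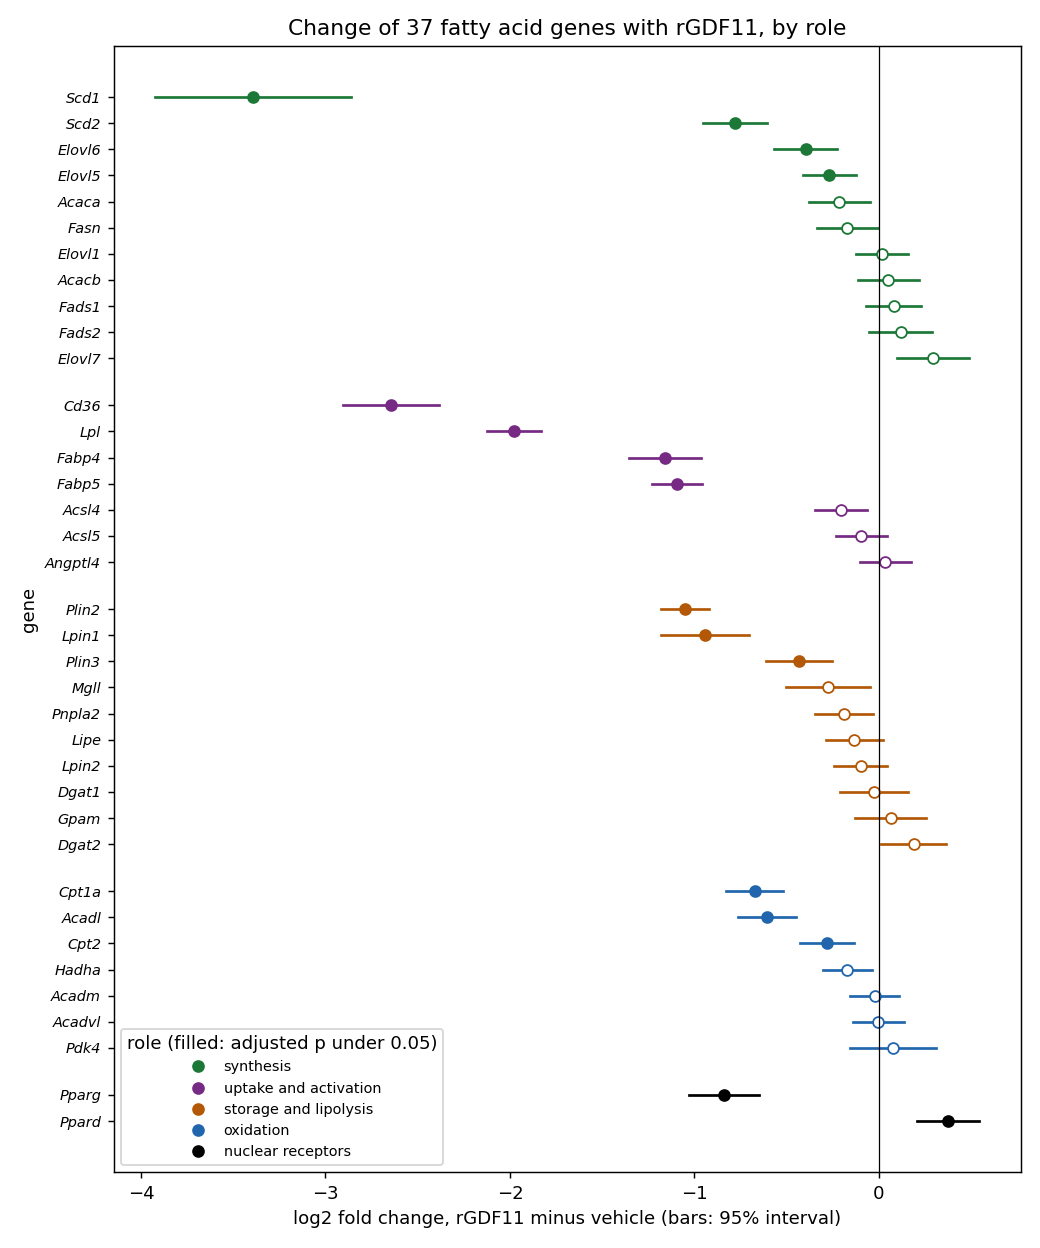
Log2 fold change, rGDF11 minus vehicle (horizontal axis), with 95% limma interval for the 37 measured genes, grouped by role from synthesis at the top to nuclear receptors at the bottom. Filled points passed at an adjusted p under 0.05. In each of the first 4 roles a few genes reach far to the left, from -3.39 for *Scd1* to -0.67 for *Cpt1a*, while most others lie near 0.

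The uptake and activation genes had the lowest median log2 fold change of the 4 roles, but they were split. Of the 7 measured, 4 fell by more than 1 log2 unit and the other 3 lay at -0.21 to 0.04. *Cd36* (10528207), the scavenger receptor and fatty acid translocase, read 8.89, 8.76 and 8.63 with rGDF11, against 11.39, 11.61 and 11.22 with vehicle. Every rGDF11 array lay more than 2 log2 units below every vehicle array, and the log2 fold change was -2.65 (SE 0.11, limma adjusted p = 1.17e-05; 6.26-fold lower, rank 13 among all falls). *Lpl* (10572130), the secreted lipase that frees fatty acids from lipoproteins, read 10.23, 10.17 and 10.21 with rGDF11, against 12.13, 12.25 and 12.17 with vehicle. Both groups were tight, with a log2 fold change of -1.98 (SE 0.06, limma adjusted p = 3.31e-06; 3.94-fold lower, rank 51 among all falls).

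The fatty acid-binding proteins of adipocytes and macrophages, which carry fatty acids through the cytosol, also fell. *Fabp4* (10497265) read 5.79, 5.93 and 5.91 with rGDF11, against 7.00, 6.93 and 7.18 with vehicle (log2 fold change -1.16, limma adjusted p = 9.13e-05). *Fabp5* (10585699) read 9.64, 9.65 and 9.61 with rGDF11, against 10.77, 10.72 and 10.71 with vehicle (-1.09, limma adjusted p = 2.63e-05). Neither gene's groups overlapped, and in level these were 2.24-fold and 2.14-fold lower. *Fabp4* minus *Fabp5* within an array changed by -0.07 on the log2 scale, less than its spread among the vehicle arrays (SD 0.15, exact permutation test, two-sided p = 0.6). With rGDF11 the mean of *Fabp4* was 5.88, below the median probe set at 6.15, where the size of a fall is hardest to measure. A second probe set of *Fabp5* gave -1.10.

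The start region of *Cd36*, shown as that of the uptake gene with the largest fall (chosen after its values were seen), lies at chr5:17835847-17836146, minus strand. Capitals mark the NF-Y box, the Sp1 box and the nuclear receptor half-site, in the letters given above and on either strand.
Cd36: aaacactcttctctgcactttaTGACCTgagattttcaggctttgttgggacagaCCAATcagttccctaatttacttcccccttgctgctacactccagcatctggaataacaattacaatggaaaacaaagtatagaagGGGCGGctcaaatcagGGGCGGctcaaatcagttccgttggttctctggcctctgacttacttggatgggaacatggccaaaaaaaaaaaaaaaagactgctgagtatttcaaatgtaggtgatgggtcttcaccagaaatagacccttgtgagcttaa
It holds 1 CCAAT, 2 copies of GGGCGG and 1 AGGTCA, the last on the opposite strand. CAGAC, left in lower case throughout, occurs 1 time each in the windows of *Elovl5*, *Cd36* and *Plin2*, and in that of *Cd36* it shares 1 base with the CCAAT.

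The acyl-CoA synthetases measured in the set did not pass. *Acsl4* was at -0.21 (limma adjusted p = 0.0560) and *Acsl5* at -0.09 (adjusted p = 0.377). For both, rGDF11 arrays lay below vehicle arrays without overlap, as did 16.5% of all tested probe sets. The probe set that *Acsl3* shares with *Utp14b* was at -0.67 (adjusted p = 0.00271), which cannot be assigned to either gene. *Angptl4*, a secreted inhibitor of lipoprotein lipase, was at 0.04 (adjusted p = 0.775; 95% interval -0.10 to 0.18). Of the 7 uptake and activation genes measured, 4 fell, 0 rose and 3 did not pass, and the median log2 fold change was -1.09. Over all tested probe sets 8.64% fell and 7.31% rose. The median deviation of these 7 genes from their own means was -0.54, -0.52 and -0.55 on the rGDF11 arrays and 0.54, 0.47 and 0.52 on the vehicle arrays. On each array that median is the value of *Fabp4* or *Fabp5*, so it does not describe the 3 genes that did not pass.

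In storage and lipolysis, *Plin2*, *Lpin1* and *Plin3* fell. *Plin2* (10514221), the perilipin that coats droplets in macrophages, read 11.18, 11.21 and 11.18 with rGDF11, against 12.22, 12.25 and 12.26 with vehicle. The arrays of each group agreed within 0.1 log2 units, the groups did not overlap, and the gene fell by 1.05 on the log2 scale (SE 0.06, limma adjusted p = 2.79e-05; 2.07-fold lower). *Plin3* (10452030), a perilipin found in the cytosol and on nascent droplets, read 8.34, 8.49 and 8.42 with rGDF11, against 8.75, 8.83 and 8.96 with vehicle (log2 fold change -0.43, limma adjusted p = 0.00739). *Lpin1* (10399478) encodes lipin 1, the phosphatase that makes diacylglycerol from phosphatidate and also acts as a nuclear coactivator. *Lpin1* read 6.52, 6.54 and 6.22 with rGDF11, against 7.26, 7.48 and 7.37 with vehicle (-0.95, limma adjusted p = 6.70e-04; 1.93-fold lower), so the highest rGDF11 array was still well under the lowest vehicle array. Its paralogue *Lpin2* was at -0.10 and did not pass (adjusted p = 0.372).

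The start region of *Plin2*, shown as that of the storage gene with the largest fall (chosen after its values were seen), lies at chr4:86670010-86670309, minus strand. Capitals mark the same 3 motifs.
Plin2: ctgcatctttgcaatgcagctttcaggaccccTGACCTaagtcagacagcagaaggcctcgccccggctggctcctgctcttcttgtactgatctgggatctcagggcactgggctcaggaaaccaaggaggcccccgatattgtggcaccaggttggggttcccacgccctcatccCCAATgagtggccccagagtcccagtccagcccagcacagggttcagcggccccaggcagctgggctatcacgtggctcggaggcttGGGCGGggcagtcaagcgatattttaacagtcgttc
It holds 1 copy of each, with AGGTCA on the opposite strand. The same 3 sets of letters are in the *Cd36* window printed above, and *Elovl5* and *Elovl6* each hold 1 of the 3.

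The other assembly genes of the set did not pass: *Gpam*, which adds the acyl chain that starts glycerolipid synthesis, was at 0.06 (limma adjusted p = 0.696), *Dgat1* at -0.03 (adjusted p = 0.869) and *Dgat2*, like *Dgat1* an enzyme of the final step, at 0.19 (adjusted p = 0.155), higher on every rGDF11 array. The lipases that break triacylglycerol down in sequence also did not pass, with log2 fold changes of -0.19 for *Pnpla2* (adjusted p = 0.108), -0.13 for *Lipe* (adjusted p = 0.246) and -0.28 for *Mgll* (adjusted p = 0.112). For each of these lipases every rGDF11 array read lower than every vehicle array. Of all tested probe sets, 16.5% lay lower and 16.4% higher without overlap. Of the 10 storage and lipolysis genes 3 fell, 0 rose and 7 did not pass, with a median log2 fold change of -0.16. Over all tested probe sets 8.64% fell and 7.31% rose.

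In oxidation, *Cpt1a*, *Acadl* and *Cpt2* fell. *Cpt1a* (10460157), the carnitine palmitoyltransferase that commits fatty acids to the mitochondrion, read 9.29, 9.25 and 9.26 with rGDF11, against 9.84, 9.99 and 10.00 with vehicle. The rGDF11 arrays lay close together and well below the vehicle arrays, with a log2 fold change of -0.67 (SE 0.07, limma adjusted p = 4.21e-04; 1.60-fold lower). *Cpt2* (10514933), which returns the chain to CoA inside, read 8.32, 8.32 and 8.34 with rGDF11, against 8.53, 8.62 and 8.68 with vehicle (-0.28, limma adjusted p = 0.0214). This call was lost when any 1 rGDF11 replicate, or vehicle replicate 2 or 3, was left out, with an adjusted p of up to 0.0767. *Acadl* (10355246), the acyl-CoA dehydrogenase of long chains, read 8.49, 8.61 and 8.49 with rGDF11, against 9.11, 9.21 and 9.11 with vehicle (-0.61, limma adjusted p = 7.54e-04; 1.52-fold lower), and its groups lay apart by far more than either group's spread. The dehydrogenases of very long and medium chains were near 0, *Acadvl* at -0.0033 (95% interval -0.14 to 0.13) and *Acadm* at -0.02 (95% interval -0.16 to 0.11). *Hadha*, a subunit of the trifunctional protein, was at -0.17 (adjusted p = 0.0866), and *Pdk4*, the kinase that turns pyruvate away from oxidation, at 0.08 (adjusted p = 0.689). So 3 of 7 fell, 0 rose and 4 did not pass, with a median log2 fold change of -0.17. Over all tested probe sets 8.64% fell and 7.31% rose.

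The nuclear receptors moved in opposite directions. *Pparg* (10540897) read 9.48, 9.38 and 9.55 with rGDF11, against 10.20, 10.29 and 10.43 with vehicle, a log2 fold change of -0.84 (SE 0.08, limma adjusted p = 3.85e-04; 1.79-fold lower). *Ppard* (10443332), which encodes PPAR-δ, a receptor that drives fatty acid oxidation genes in muscle and macrophages, read 8.05, 7.94 and 7.98 with rGDF11, against 7.60, 7.53 and 7.72 with vehicle. It was the only gene of the set that rose (0.37, limma adjusted p = 0.0114; 1.30-fold higher), and without rGDF11 replicate 1 its adjusted p was 0.0506. For both receptors the groups did not overlap. *Pparg* minus *Ppard* within an array was 1.43, 1.44 and 1.57 with rGDF11 and 2.60, 2.76 and 2.71 with vehicle (exact permutation test, two-sided p = 0.1).

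**Figure D3:**
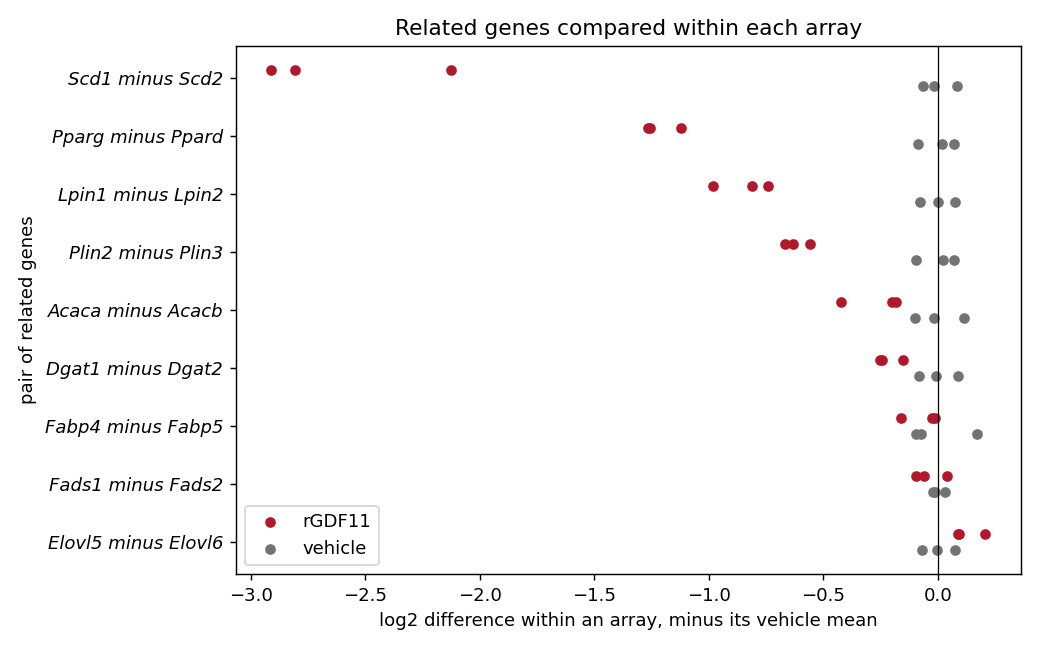
Difference between related genes within each array (log2, horizontal axis), after subtracting the mean of the vehicle arrays, for 9 pairs, with rGDF11 arrays in red above vehicle arrays in grey. *Scd1* minus *Scd2* moves furthest, by -2.61, and the pairs *Fabp4* with *Fabp5* and *Fads1* with *Fads2* overlap between the groups.

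Of the 9 pairs compared within arrays, 7 had groups without overlap (exact permutation test, two-sided p = 0.1, adjusted p = 0.129 for each). That p is the smallest that 3 arrays against 3 allow, so no pair could pass at 0.05. The share over other pairs of genes was not computed. Among all single probe sets, 16.5% lay lower and 16.4% higher without overlap. *Acacb* (mean 5.58) and *Dgat2* (mean 5.95) read below the median probe set. Besides *Scd1* with *Scd2* and the PPARs, the change was -0.85 for *Lpin1* minus *Lpin2*, -0.62 for *Plin2* minus *Plin3*, -0.27 for *Acaca* minus *Acacb*, -0.22 for *Dgat1* minus *Dgat2* and 0.13 for *Elovl5* minus *Elovl6*. *Fads1* minus *Fads2* changed by -0.04 (p = 0.5, exact permutation test).

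Set side by side, synthesis had 4 of 11 genes lower (36.4%) and uptake, storage and oxidation together 10 of 24 (41.7%). In either, 0 were higher. Over all tested probe sets 8.64% were lower and 7.31% higher. The medians were -0.17 for synthesis and -0.20 for uptake, storage and oxidation. Without vehicle replicate 3 the synthesis median was -0.11. At the methods' threshold the counts lower were 2 of 11 and 8 of 24, beside 2.96% of all tested probe sets. These counts describe the roles, and the difference between them was not tested. The genes of each role that did not pass had log2 fold changes of -0.22 to 0.29 in synthesis, -0.21 to 0.04 in uptake and activation, -0.28 to 0.19 in storage and lipolysis and -0.17 to 0.08 in oxidation.

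A wider list held 135 other fatty acid genes, 124 of them measured. It gave 31 that fell (25.0%), 5 that rose and 88 that did not pass, with a median log2 fold change of -0.068. These counts stand beside 8.64% of all tested probe sets that fell and 7.31% that rose. In synthesis and its control 13 of 27 fell (48.1%) and 1 rose. *Acss2*, which makes cytosolic acetyl-CoA from acetate, read 6.12, 6.02 and 6.24 with rGDF11, against 7.51, 7.85 and 7.75 with vehicle (log2 fold change -1.58, limma adjusted p = 5.60e-05; 2.99-fold lower). *Insig1*, which holds the SREBP precursors in the endoplasmic reticulum and is itself an SREBP target, read 10.10, 9.83 and 9.85 with rGDF11, against 11.03, 11.03 and 11.12 with vehicle (-1.13, limma adjusted p = 1.11e-04; 2.19-fold lower). Both genes read lower on every rGDF11 array than on any vehicle array.

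Of the regulators listed in any case, *Srebf1*, *Srebf2* and *Nr1h3* fell by less. *Srebf1*, which encodes the main SREBP of fatty acid synthesis, changed by -0.43 on the log2 scale (limma adjusted p = 0.00415), *Srebf2*, the SREBP of cholesterol synthesis, -0.28 (adjusted p = 0.0268), and *Nr1h3*, which encodes LXR-α, -0.45 (adjusted p = 0.00904). *Nr1h2* had no probe set of its own. *Mlxipl*, which encodes ChREBP, a factor of carbohydrate-driven lipid synthesis, was at -0.13 and did not pass (adjusted p = 0.465). *Fads3*, next to *Fads2* on chromosome 19, was the gene of this list that rose most: it read 8.41, 8.58 and 8.67 with rGDF11, against 7.20, 7.48 and 7.44 with vehicle (1.18, limma adjusted p = 1.78e-04; 2.27-fold higher), while its neighbours *Fads1* and *Fads2* did not pass.

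In oxidation 11 of 36 other genes fell (30.6%, beside 8.64% of all probe sets) and 0 rose. That list also holds genes outside β-oxidation itself, among them AMPK subunit genes, acyl-CoA thioesterase genes and *Pdk1* to *Pdk3*. One AMPK subunit gene, *Prkag1* (-0.23, limma adjusted p = 0.0288), is among the 11. Chosen after their values were seen, the carnitine genes *Slc25a20* (log2 fold change -0.58, limma adjusted p = 4.70e-04) and *Crat* (-0.55, adjusted p = 8.52e-04), the mitochondrial carrier and carnitine acetyltransferase, were lower beside *Cpt1a* and *Cpt2*, as was *Decr1* (-0.62, adjusted p = 0.00255), which handles unsaturated chains. Of the other carnitine acyltransferase genes, *Crot* was at -0.23 (adjusted p = 0.146) and *Cpt1c* at -0.09 (adjusted p = 0.488), and neither passed. *Hadhb*, the partner of *Hadha*, was at -0.21 and did not pass (adjusted p = 0.0729). In storage and lipolysis 5 of 28 fell (17.9%). They were the acyltransferase genes *Agpat3* (-0.67) and *Agpat4* (-0.39), the lysosomal lipase gene *Lipa* (-0.50) and the droplet genes *Hsd17b11* (-0.47) and *Bscl2* (-0.27). *Hilpda*, which encodes an inhibitor of *Pnpla2*'s product, rose (0.37). In uptake and activation 2 of 22 fell, *Fabp7* (-0.87) and *Fabp3* (-0.85), a share of 9.09% that is near the 8.64% of all probe sets, and *Acsbg1*, an acyl-CoA synthetase gene, rose (0.90). Among 11 other nuclear receptors and cofactors 0 fell and 2 rose: *Ppargc1b*, which encodes the coactivator PGC-1β of mitochondrial biogenesis, at 0.99 (limma adjusted p = 8.12e-04) and the corepressor gene *Nrip1* at 0.51. *Ppara* was at -0.0078 (adjusted p = 0.963) at a low level and *Rxra* at 0.12 (adjusted p = 0.362).

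**Figure D4:**
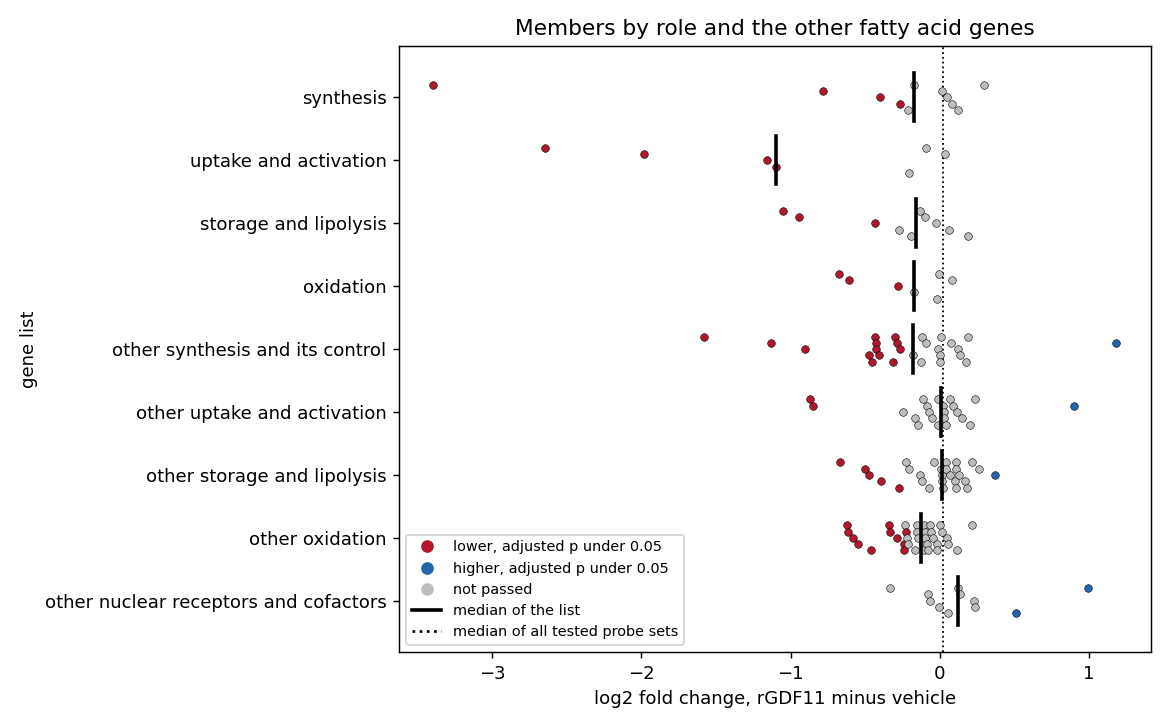
Log2 fold change, rGDF11 minus vehicle (horizontal axis), of each measured gene of the 4 roles and of the wider lists, with the median of each list as a black bar and that of all tested probe sets as a dotted line. Red points fell, blue points rose and grey points did not pass. The median of uptake and activation, at -1.09, lies furthest from 0.024, the median of all probe sets. Of the 7 genes in that role, 3 lie at -0.21 to 0.04.

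The 7 uptake and activation genes described above had a median log2 fold change of -1.09, beside 0.0046 for the 22 others. That -1.09 is the value of *Fabp5*, 1 of the 4 that fell, and the other 3 lay at -0.21 to 0.04. For synthesis the medians were -0.17 in the main set and -0.18 in the wider list, for oxidation -0.17 and -0.13, and for storage and lipolysis -0.16 and 0.017. Many uptake and storage genes of the wider lists read below the median probe set, at 6.15, as means over the 6 arrays. Among them were *Fabp1* (3.36), *Slc27a2* (4.38), *Cidea* (3.98) and *Plin1* (5.20). Of the main set's genes in those roles, only *Angptl4*, *Dgat2* and *Mgll* did. A change is hardest to measure at such levels, so the lists compared are unlike in level. Since the genes of both lists were picked by hand, these medians describe the lists only.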

How the data were processed

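Mouse Gene 1.0 ST arrays (Affymetrix) measured RNA of 3 rGDF11 and 3 vehicle samples. The deposited log2 values come from RMA, run by the authors, so background correction, normalization across arrays and probe summary are already in them. The processing notes name Transcriptome Analysis Console 3.0, and the methods also name Expression Console (version not given in the sources used here). There are no detection calls, and the number of arrays limits the precision.

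Of 35556 probe sets, 23410 with a symbol in the platform annotation were tested with limma 3.58.1 in R 4.3.3 (lmFit, eBayes without trend, two-sided, Benjamini-Hochberg). The script was tested on simulated data. Of 21789 single-symbol probe sets, 21698 were matched in a gene table of GRCm38.p6. Pairs of related genes were compared within arrays by an exact permutation test. Genes with values on every array are members called at a fold change of at least 1.5, and in each role the largest rise and fall among those called; other called members were added. Other fatty acid genes were named where called at an absolute log2 fold change of at least 1, with 8 regulators in any case, and counts of 5 or fewer were named after their values were seen. Members and lists were chosen with earlier results of these data known. Same-numbered arrays correlated at 0.064, 0.33 and -0.00083 in their deviations, so numbers were not treated as pairs. Alternatives covered rows, dim rows, normalization, spread, the methods' t-test, the replicate block, left-out arrays, probe sets and thresholds.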

Additional observations from a re-analysis of the deposited data

How the results depend on the processing

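No called member changed sign under any alternative run. Among the genes that did not pass, *Elovl1* (-0.0056 to 0.057), *Gpam* (-0.015 to 0.12), *Dgat1* (-0.077 to 0.032), *Acadm* (-0.037 to 0.0047) and *Acadvl* (-0.025 to 0.012) had log2 fold changes on both sides of 0 across the alternatives. The count of members that rose, 1 in the main setting, was 2 with only probe sets above the median level, after quantile normalization, with an intensity trend in eBayes, with the replicate number as a block (replicate block) and with the mean of a gene's probe sets, the second gene being *Elovl7* each time. It was 0 at an adjusted p under 0.01 and 0 with a fold change of at least 1.5, and ranged between 0 and 2 with 1 array left out. Over all probe sets the replicate block gave 1943 lower and 1676 higher calls, against 2023 and 1712 without it. Members that fell numbered 15 in the main setting, 19 with only probe sets above the median level and 20 with an intensity trend. The methods' t-test gave 17. The added falls were among *Fasn*, *Acaca*, *Acsl4*, *Pnpla2* and *Hadha*. The count was 13 or 14 with 1 array left out, 13 at an adjusted p under 0.01 and 11 at a fold change of 1.5. Synthesis genes that fell numbered 2 instead of 4 at a fold change of at least 1.5, 5 above the median level and 6 with the trend. Members lower at the methods' threshold numbered 6 instead of 11 at a fold change of 2. Other fatty acid genes that fell numbered 18 at an adjusted p under 0.01 and 8 at a fold change of 1.5, instead of 31. They numbered 21 to 24 with 1 array left out, 22 with all probe sets tested and 23 with the methods' t-test. Those that rose numbered 8 among probe sets above the median and 3 at a fold change of 1.5, instead of 5. The synthesis median, -0.17, was -0.11 without vehicle replicate 3. The median of uptake, storage and oxidation, -0.20, was -0.24 above the median level, -0.16 after quantile normalization and -0.28 without the genes of shared or regulatory role. The cause of these shifts was not tested, other than by the stricter thresholds and fewer genes that the settings themselves impose. Among the 16 called members, *Elovl5*, *Cpt2* and *Ppard* lost their call with some arrays left out, as given above, and at an adjusted p under 0.01. With a fold change of at least 1.5 also required, those genes and *Elovl6* and *Plin3* lost it. The methods' t-test called 649 probe sets lower and 446 higher at the methods' threshold, and 1597 lower and 1273 higher after Benjamini-Hochberg adjustment. Of the measured members 5 (*Acacb*, *Angptl4*, *Dgat2*, *Mgll*, *Pdk4*) had a mean below the median probe set, where a change is hardest to measure.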
